A study of Caenorhabditis elegans with 10 samples.

Results

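The genes described here are the protein-coding members of the chemoreceptor families srbc, srsx, srz, srr, srm and srn of Caenorhabditis elegans, measured in sorted ASH neurons and in other sorted cells. Most of these families are called solo families, because they fall outside the large Str, Sra and Srg superfamilies of nematode receptors. Members were chosen by name and biotype per the authors' deposited table, which gave 194 of its 20363 protein-coding genes and of its 46272 genes of all kinds. The families hold 72 srbc, 68 srz, 37 srsx, 10 srr, 6 srm and 1 srn genes. Both groups came from wild-type worms grown on standard plates without treatment. One group was ASH neurons, sorted by a YFP label (5 libraries). The other was cells taken as without YFP in the same kind of sort (5 libraries), called non-ASH below. The age of the worms and the promoter that drove YFP are not stated in the sources used, and the labels do not name the cell types of the non-ASH fraction.

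Nematode chemoreceptor genes encode seven-transmembrane, G protein-coupled receptors, and most that have been studied are made in a few sensory neurons each. The receptors are carried to the cilium at the tip of the dendrite, where a bound ligand acts through G alpha proteins on TRPV or cyclic nucleotide-gated channels. ASH is a pair of head neurons with cilia open to the outside that drive avoidance of high osmolarity, touch and repellents. Few members of these families have a known ligand. Among them, srbc-64 and srbc-66 encode receptors for dauer-inducing ascaroside pheromones in ASK neurons, and srsx-3 is a marker of AWC-off, the AWC neuron of the pair that does not express str-2.

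The authors' deposited table gave 1 FPKM value (fragments scaled to transcript length and to the mapped total of the library) for each group, so the values below have no standard deviation and library depth is unknown. FPKM is a level per length and can be compared between genes. Unless Cuffdiff is named, every log2 fold change (ASH over non-ASH) and every adjusted p was taken from the authors' DESeq2 fit to counts. Genes are said to be called where that adjusted p is under 0.05. For members whose calls differ between the tools, the q value of the authors' other tool, Cuffdiff, is also given. The labels do not state that libraries came from separate sorts, so these p-values measure the spread between libraries, which may be technical. In bulk RNA from sorted cells, fewer cells of a type and less RNA per cell cannot be told apart.

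As a check of the sort, 5 of 6 ASH markers, among them the osmotic avoidance gene osm-10, were called higher (4 by Cuffdiff), and the other, nhr-79, stood at 5.45 FPKM against 1.67 (adjusted p = 0.183) per the authors' deposited table. The YFP transcript itself was at 1612 FPKM (ASH) against 68.1 (non-ASH) (log2 fold change 4.24, adjusted p = 1.3e-09, Cuffdiff q = 0.00101). The non-ASH libraries were thus not free of YFP transcript. Of 36 markers of other sensory neurons, 26 had an adjusted p and 0 were called in either direction by DESeq2, with 3 lower and 3 higher at an unadjusted p under 0.05 and 1 lower and 1 higher by Cuffdiff. Their summed level was 376 FPKM (ASH) against 500.5 (non-ASH). Much of each sum came from flp-6 (110 FPKM in ASH, 103 in non-ASH), flp-14 (100 and 147), daf-28 (40.6 and 143) and nlp-8 (72.3 and 48.3). The sums therefore say little about the other markers, and markers of one cell type differed in level. The AWB marker str-1 was listed at 0 in ASH and at 0.0221 FPKM in non-ASH, with no adjusted p. The other AWB marker, srab-24, was at 9.80 FPKM (ASH) against 0.637 (non-ASH) (adjusted p = 0.066, Cuffdiff q = 0.0142). The ADL marker srh-220 was listed at 0 in ASH and at 0.105 FPKM in non-ASH, also with no adjusted p. Both str-1 and srh-220 were near 0 in both groups, so they cannot show a loss in ASH. Of the other ADL markers, ver-2 was at 0.727 FPKM (ASH) against 0.364 (non-ASH) and nlp-8 at 72.3 against 48.3. Markers of non-neuronal cells moved both ways by DESeq2 per the authors' deposited table. Called lower were 4 of 4 glia, 3 of 3 coelomocyte and 2 of 5 pharynx genes. Called higher were 2 of 5 intestine and 1 of 3 body wall muscle genes. Of 4 epidermis genes 1 was higher and 1 lower, and of 4 germ line and sperm genes 0 were called. Cuffdiff called lower 2 glia, 3 coelomocyte, 3 pharynx and 1 germ line and sperm genes. It called higher 1 intestine, 1 body wall muscle and 1 epidermis gene. Summed levels in ASH and non-ASH were 36.6 and 158 FPKM for glia, 9.04 and 85.3 for coelomocytes, and 5412 and 1287 for intestine. The marker counts by DESeq2 stand beside 5.32% higher and 4.44% lower over all genes with an adjusted p. Those by Cuffdiff stand beside 3.4% higher and 3.36% lower over all its tested genes. The part of non-neuronal cells in the results below was not tested.

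A small set of members was abundant in ASH and most others were near 0 in both groups. Across all 1340 protein-coding chemoreceptor genes of 22 families per the authors' deposited table, the 3 with the highest ASH values were members: srm-4 at 56.0 FPKM, srsx-27 at 46.8 and srr-4 at 44.7. Together they held 48.6% of the summed ASH level of the 194 genes, and 16 genes held 90% of it. In non-ASH the highest 3 members held a like share of the sum, 49.1%, and 42 genes held 90% of it. The sum of the 194 genes was 303 FPKM (ASH) against 40.6 (non-ASH). That of the other 1146 protein-coding chemoreceptor genes was 1072 against 343. In ASH, 22 members reached 1 FPKM and 9 reached 10 FPKM, whereas 7 reached 1 FPKM in non-ASH. The 22 of 194 compare with 12.7% of the other 1146 protein-coding chemoreceptor genes and 58.5% of all protein-coding genes. In non-ASH the corresponding shares were 1.92% and 61.6%, and that of the members was 3.61%. A total of 120 members were below 0.1 FPKM in both groups, and 55 were listed at 0 in both. The median level of the members was 0.0162 FPKM (ASH) against 0.0220 (non-ASH).

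**Figure D1:**
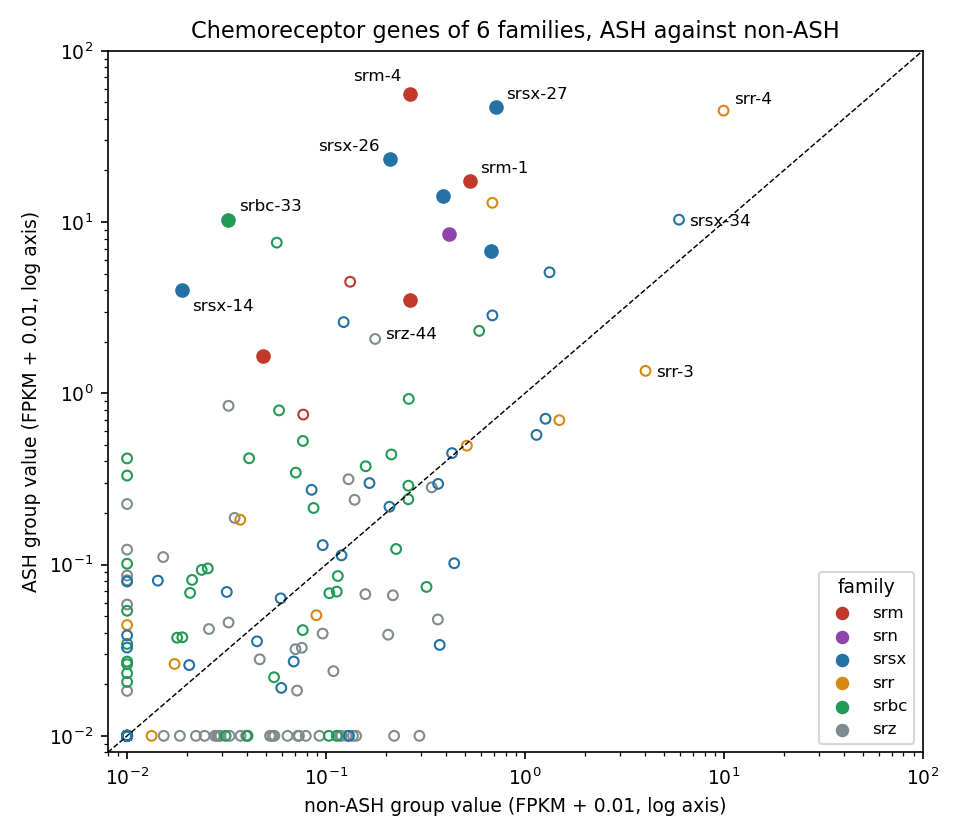
Group values of the 194 genes, with non-ASH on the x axis and ASH on the y axis, both as FPKM with 0.01 added on log axes and coloured by family. Filled points are called higher by DESeq2 per the authors' deposited table, open points are not called, and the dashed line marks equal values; the 11 filled points lie far above the line, and most srz genes lie near the lower left corner.

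DESeq2 called 11 members higher in ASH and 0 lower per the authors' deposited table. Over all genes with an adjusted p, 5.32% were called higher and 4.44% lower. Only 34 of the 194 members had an adjusted p, and a gene near 0 in non-ASH could reach that level through ASH alone, so the count is also given over every member listed: 11 of 194 is 5.67%, beside 4.22% of all protein-coding genes listed and 7.42% of the other chemoreceptor genes. Over all 194 members the median log2 ratio of group values with 1 FPKM added was 0, and over all protein-coding genes it was -0.04. A p was given for the 34 members with an adjusted p and for 65 others. At an unadjusted p under 0.05, 20 of these members were higher and 0 lower, beside 9.72% and 10.4% of all genes with a p. Of the 47 members tested by Cuffdiff, 6 were called higher and 0 lower. Cuffdiff called 3.4% of all its tested genes higher and 3.36% lower. A gene near 0 in non-ASH could be tested by Cuffdiff through ASH alone as well. Over all genes listed, Cuffdiff called higher 6 of 194 members, 21 of the 1146 other chemoreceptor genes and 601 of 20363 protein-coding genes. It called lower 0, 2 and 605 of these. Stricter rules were applied to the 34 members with an adjusted p. With an adjusted p under 0.01, with a 2-fold minimum and by both tools, 7, 11 and 2 were higher and 0 lower. Over all genes with an adjusted p, 2.67%, 4.9% and 2.36% were higher and 2.06%, 4.08% and 2.24% lower under these rules. The limit given above for genes with an adjusted p holds for these counts too. Over all genes listed, both tools called higher 2 of 194 members, 16 of the 1146 other chemoreceptor genes and 389 of 20363 protein-coding genes. The 11 genes called by DESeq2 were srm-1, srm-2, srm-4, srm-5, srn-1, srsx-14, srsx-16, srsx-18, srsx-26, srsx-27 and srbc-33. Their ASH values ran from 1.65 to 56.0 FPKM and their non-ASH values from 0.00878 to 0.705 FPKM. The 11 genes were selected by the call, so the gap between these ranges is not a separate result. Their log2 fold changes ran from 2.75 to 6.58 with a median of 3.66 per the authors' deposited table.

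**Figure D2:**
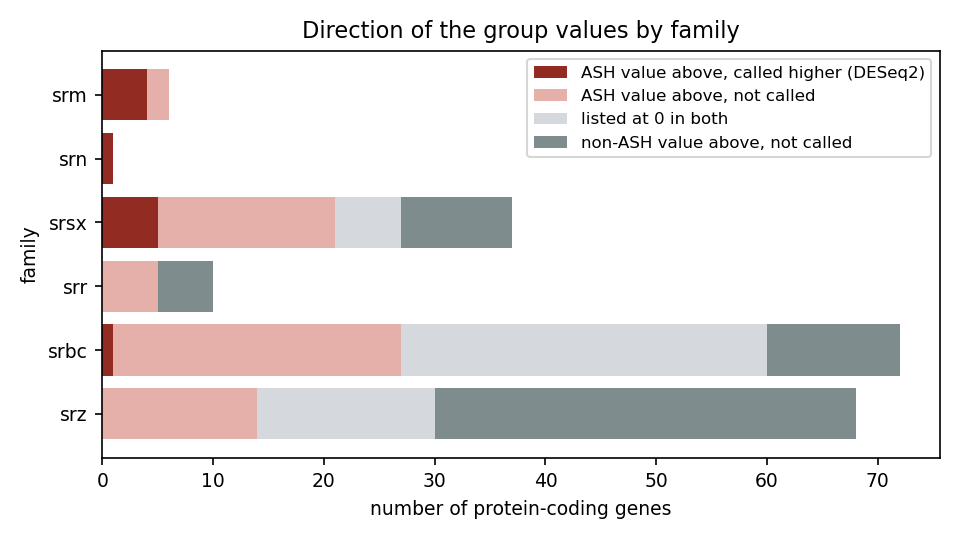
Number of protein-coding genes in each family (x axis) whose ASH value was the higher, split by the DESeq2 call, whose non-ASH value was the higher, or that were listed at 0 in both. In srm and srn the ASH value was the higher for all 7 genes, and in srz the non-ASH value was the higher for 38 of 68.

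The small srm family, receptors whose ligands are not known here, had the higher value in ASH for every one of its 6 genes. The authors' deposited table listed srm-4 at 56.0 FPKM (ASH) against 0.254 (non-ASH), a ratio of 219.9, with a DESeq2 log2 fold change of 6.58 (adjusted p = 1.84e-12). Its ASH value was above that of 87.4% of protein-coding genes, while in non-ASH it ranked 201 among the chemoreceptor genes. Second in the family was srm-1, with 17.3 FPKM against 0.518 and a log2 change of 4.37 (adjusted p = 7.24e-06) per the authors' deposited table. The group values of srm-5 were 3.51 and 0.254 FPKM, and its log2 fold change was 2.89 (adjusted p = 0.0244) per the authors' deposited table. For srm-2, at 1.65 FPKM against 0.0381, the authors' deposited table gave 3.59 (adjusted p = 0.0131). Those 4 rose in ASH by DESeq2's test. The other 2 did not pass: srm-6 stood at 4.47 FPKM against 0.122 (DESeq2 adjusted p = 0.195) and srm-3 at 0.741 against 0.0668 (adjusted p = 0.362) per the authors' deposited table. Cuffdiff called srm-6 (q = 0.04) and srm-1 (q = 0.00101), and it did not call srm-4 (q = 0.378), srm-5 (q = 0.553) or srm-2 (q = 0.539). The sole srn gene, srn-1, was at 8.52 FPKM (ASH) against 0.404 (non-ASH), with a log2 change of 3.41 (adjusted p = 0.00552; Cuffdiff q = 0.532) per the authors' deposited table.

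**Figure D3:**
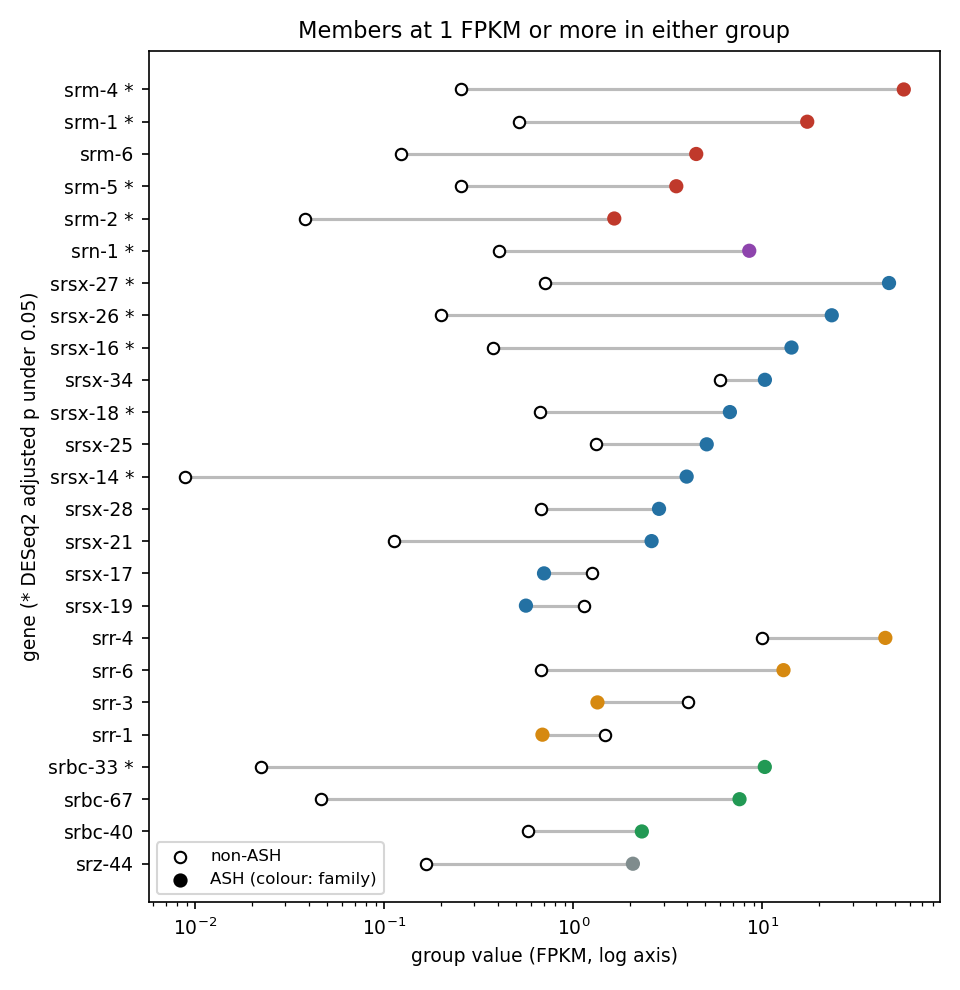
Group values in FPKM (log x axis) of the 25 members at 1 FPKM or more in either group, with filled points for ASH coloured by family and open points for non-ASH. An asterisk marks genes called higher by DESeq2 per the authors' deposited table; srsx-17, srsx-19, srr-1 and srr-3 are the 4 whose open point lies to the right.

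The srsx family had 5 of its 37 genes higher in ASH and 0 lower by DESeq2, and 14 had an adjusted p. Cuffdiff called 1 of the 5, srsx-27. Leading the family, srsx-27 stood at 46.8 FPKM (ASH) against 0.705 (non-ASH), with a log2 change of 5.51 (adjusted p = 1.24e-15), and Cuffdiff also called it (q = 0.00101) per the authors' deposited table. Its neighbour srsx-26 was at 23.3 FPKM against 0.201, with 3.25 (adjusted p = 0.0312; Cuffdiff q = 0.379). Exons of srsx-26 overlap those of srsx-27 and of C51E3.9 on the same strand in the Ensembl release 115 annotation, and C51E3.9 was listed at 24.2 FPKM (ASH) against 23.8 (non-ASH), so the reads of these 3 genes may not be fully separable. On chromosome IV, srsx-16 was at 14.3 FPKM against 0.377 with 3.66 (adjusted p = 0.0036; Cuffdiff q = 0.153), and srsx-14 at 3.98 against 0.00878 with 6.02 (adjusted p = 1.91e-06; Cuffdiff q = 0.156) per the authors' deposited table. With 1 FPKM added to both values the log2 ratio of srsx-14 is 2.30, so its fold change depends on the scale used for a gene near 0 in non-ASH. The fifth gene called, srsx-18, had 6.73 FPKM against 0.667 and a log2 change of 2.75 (adjusted p = 0.011; Cuffdiff q = 0.406) per the authors' deposited table.

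Other srsx genes were present in ASH without passing DESeq2's test, and several were present in both groups. The authors' deposited table gave srsx-21, at 2.59 FPKM against 0.113, a log2 change of 2.89 (adjusted p = 0.0625), and srsx-25, at 5.08 against 1.32, a value of 1.33 (adjusted p = 0.0857). Exons of srsx-25 overlap those of agt-1 on the opposite strand, and agt-1, a gene for a DNA alkyltransferase, was listed at 50.9 FPKM (ASH) against 53.95 (non-ASH). The libraries were strand-specific, but whether the counting used strand is not stated in the sources used. Cuffdiff called srsx-28 higher (q = 0.0471) at 2.84 FPKM against 0.676, where DESeq2 gave an adjusted p of 0.381 per the authors' deposited table. The most abundant srsx gene in non-ASH was srsx-34, at 5.94 FPKM there and 10.3 in ASH, with a log2 change of 0.68 (adjusted p = 0.464) per the authors' deposited table. In non-ASH srsx-34 ranked 5 among all chemoreceptor genes. Values were higher in non-ASH for srsx-17 (1.26 FPKM against 0.700 in ASH) and srsx-19 (1.13 against 0.562), with adjusted p of 0.59 and 0.494 per the authors' deposited table. The remaining genes with an adjusted p were below 0.5 FPKM in both groups: srsx-36 at 0.437 FPKM (ASH) against 0.420 (non-ASH), srsx-30 at 0.0918 and 0.431, and srsx-40 at 0.0240 and 0.363. The AWC-off marker srsx-3 was at 0.289 FPKM (ASH) against 0.155 (non-ASH) and had no adjusted p.

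The srr family was split between a pair of abundant genes and the rest, and DESeq2 called 0 of its 10 genes in either direction, with 2 higher and 0 lower at an unadjusted p under 0.05 and 2 higher and 0 lower by Cuffdiff. At 44.7 FPKM in ASH, srr-4 ranked 3 among the chemoreceptor genes there, and at 9.95 FPKM it was also the most abundant member in non-ASH, where it ranked 4 among all chemoreceptor genes. Its log2 fold change was 1.73 per the authors' deposited table, and the tools differed on it, with a DESeq2 adjusted p of 0.0769 and a Cuffdiff q of 0.00101. The neighbouring srr-6, at 12.9 FPKM (ASH) against 0.676 (non-ASH), had 2.22, and here too the authors' deposited table gave a DESeq2 adjusted p above the threshold (0.16) and a Cuffdiff q below it (0.0213). In the other direction, srr-3 had 4.03 FPKM in non-ASH and 1.34 in ASH (adjusted p = 0.581), srr-1 had 1.48 and 0.687 (adjusted p = 0.283), and srr-2 had 0.501 and 0.485 (adjusted p = 0.858) per the authors' deposited table. The remaining 5 srr genes had no adjusted p.

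Of the 72 srbc genes, 33 were listed at 0 in both groups and 1 was called higher in ASH. That gene, srbc-33, was at 10.3 FPKM (ASH) against 0.0222 (non-ASH), with a log2 change of 5.82 (adjusted p = 2.52e-06; Cuffdiff q = 0.495) per the authors' deposited table. Next was srbc-67, at 7.57 FPKM (ASH) against 0.0466 (non-ASH), which did not pass (log2 fold change 2.34, adjusted p = 0.124; Cuffdiff q = 0.313) per the authors' deposited table. Lower still, srbc-40 had 2.30 FPKM against 0.579 (adjusted p = 0.205) per the authors' deposited table. The pheromone receptor gene srbc-66 was at 0.917 FPKM (ASH) against 0.251 (non-ASH) (adjusted p = 0.625), and srbc-64 was at 0.0583 and 0.0107 with no adjusted p per the authors' deposited table. The values of srbc-20 were 0.785 FPKM (ASH) against 0.0481 (non-ASH) (adjusted p = 0.675), and those of srbc-60 were 0.365 and 0.148 (adjusted p = 0.765), per the authors' deposited table. Exons of srbc-20 overlap those of C45H4.21 on the opposite strand, which was at 0.0517 FPKM (ASH) and 0.133 (non-ASH). No srbc gene reached 1 FPKM in non-ASH, where the highest was srbc-40.

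In ASH, the srz family had 1 of its 68 genes at 1 FPKM or more, and 0 were called in either direction by DESeq2 or by Cuffdiff, with 1 higher (srz-28) and 0 lower at an unadjusted p under 0.05. That gene, srz-44, was at 2.07 FPKM (ASH) against 0.167 (non-ASH), and the authors' deposited table gives it a log2 change of 1.86 without a p. The 2 srz genes with an adjusted p were srz-24, at 0.272 FPKM (ASH) against 0.330 (non-ASH) (adjusted p = 0.923), and srz-85, at 0.0378 and 0.355 (adjusted p = 0.377), per the authors' deposited table. Exons of srz-85 overlap those of B0205.14 on the opposite strand. The value was higher in non-ASH for 38 srz genes and in ASH for 14, and 27 were listed at 0 in ASH and above 0 in non-ASH. Among genes below 0.4 FPKM in both groups and above 0 in at least 1, the non-ASH value was the higher for 76% of 50 srz genes, 39.6% of the 53 other members, 55.8% of the 627 other chemoreceptor genes and 57.6% of the 3332 protein-coding genes. DESeq2 called 0 of these members and other chemoreceptor genes, and 1 of the 3332 higher and 3 lower. No test was made of these counts of directions. Of the pseudogenes, which are not members, 3 of 37 srz pseudogenes had an adjusted p, and all 3 were called higher per the authors' deposited table. All 3 were near 0 in non-ASH and could get an adjusted p through ASH alone, so 3 of 3 is no separate result. Called higher were 3 of the 37 listed, beside 4.22% of all protein-coding genes listed and 5.32% of all genes with an adjusted p. The first of the 3, srz-46, was at 14.9 FPKM (ASH) against 0.0320 (non-ASH) (adjusted p = 2.26e-10, Cuffdiff q = 0.491). The others were srz-45 at 8.20 and 0.0479 (adjusted p = 0.000132, Cuffdiff q = 0.324), and srz-2 at 4.81 and listed at 0 (adjusted p = 5.65e-08, Cuffdiff q = 0.00101). The other pseudogene of these families above 1 FPKM was srsx-20, at 5.63 FPKM (ASH) against 0.872 (non-ASH) (adjusted p = 0.307) per the authors' deposited table.

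Of the 11 genes called higher, 6 lay directly beside another called gene of the family. Gene order was read from the Ensembl release 115 annotation of assembly WBcel235, counting protein-coding genes and pseudogenes, and the build behind the authors' values is not stated in the sources used. The members lie mostly on chromosome V (144) and chromosome IV (38), and 7 and 4 of the genes called higher were on these. There were 59 pairs of members of a family with no such gene between them, 56 of them on the same strand. These pairs held 98 of the 194 members and 10 of the 11 genes called higher. Both genes were called in 3 pairs (srsx-26 with srsx-27, srm-4 with srm-5, and srm-2 with srm-1), and 1 gene in 6 pairs. Exons of srsx-26 and srsx-27 overlap on the same strand, so the calls of that pair may not be separate. Whether called genes lie together more often than other members was not tested. In the run srsx-26 to srsx-30 on chromosome V the ASH values were 23.3, 46.8, 2.84, 0.103 and 0.0918 FPKM, so 3 genes above 1 FPKM were followed by 2 near 0. Next to srm-4 and srm-5 lies srm-6, at 4.47 FPKM in ASH, and srm-2 and srm-1 have no other member beside them. On chromosome IV, srsx-15 lies between srsx-16 and srsx-14 and was at 0.0286 FPKM in ASH and listed at 0 in non-ASH. On chromosome V, srsx-17 lies beside srsx-18 and had the higher value in non-ASH. Beside srr-6 lies srr-5, at 0.173 FPKM in ASH, and beyond it srr-8, at 0.0406 FPKM. Adjacent members can be similar in sequence, and how reads that match more than 1 gene were counted is not known here, so values of neighbours are not fully independent.

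**Figure D4:**
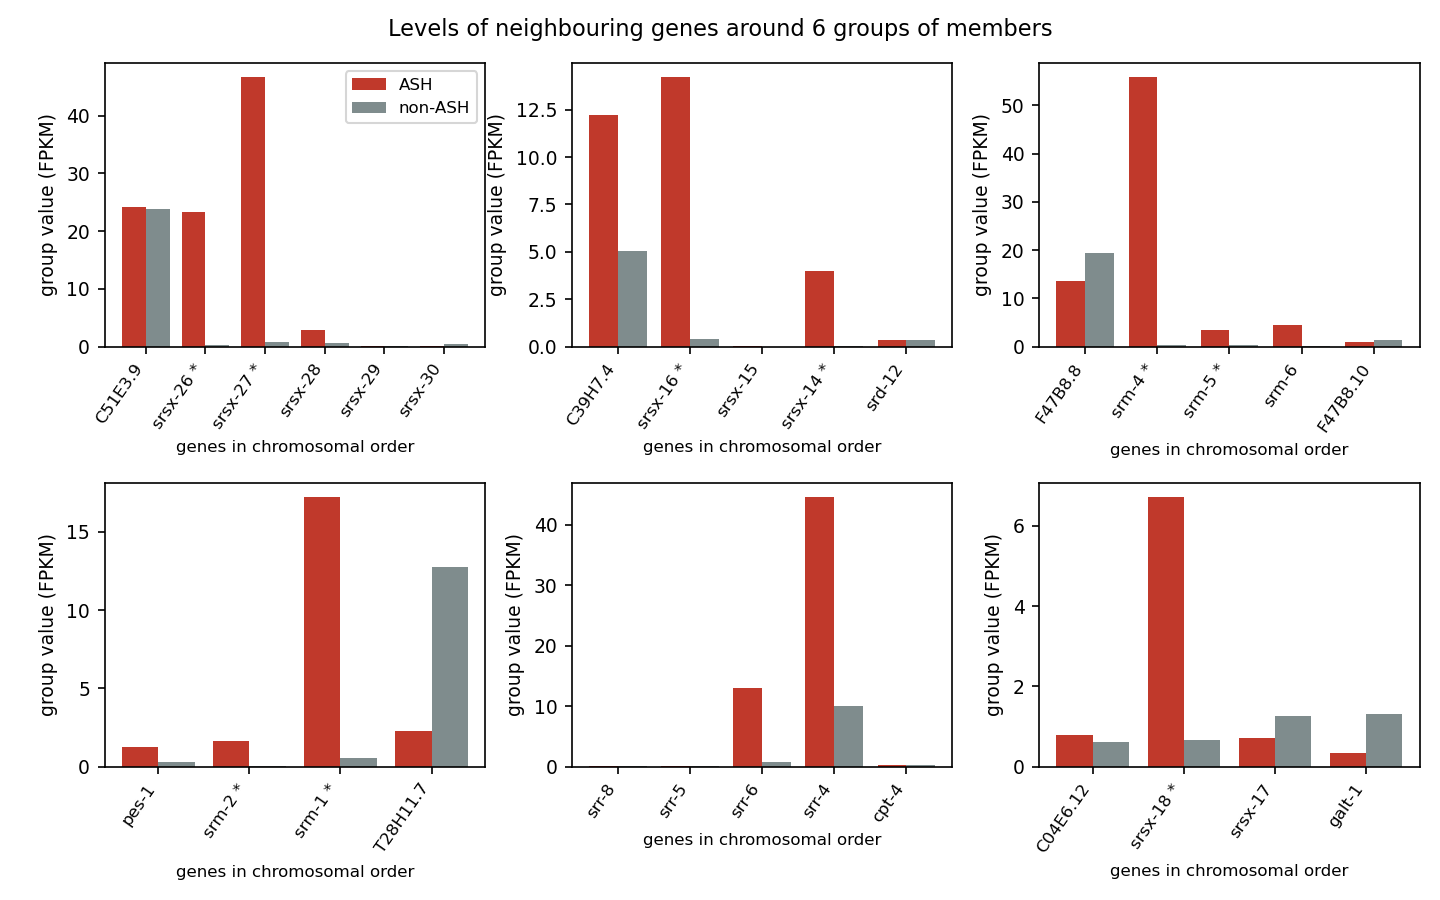
Group values in FPKM (y axis, linear, starting at 0) of genes in their chromosomal order around 6 groups of members, with red bars for ASH and grey bars for non-ASH and asterisks for genes called higher by DESeq2 per the authors' deposited table. Beside srsx-27 at 46.8 FPKM, srsx-29 and srsx-30 are near 0, and the flanking gene C51E3.9 has bars of similar height in both groups.

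DESeq2 and Cuffdiff agreed in direction for every one of the 34 members with an adjusted p, and seldom in the call. Of 15 members called by either tool, 2 were called by both (srm-1 and srsx-27), 9 by DESeq2 alone and 4 by Cuffdiff alone. The 4 called by Cuffdiff alone were srr-4, srr-6, srm-6 and srsx-28, whose log2 fold changes by DESeq2 ran up to 2.22 per the authors' deposited table. The 9 called by DESeq2 alone included the gene with the highest ASH value, srm-4. Without values for single libraries, the spread behind either tool's decision could not be examined.

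**Figure D5:**
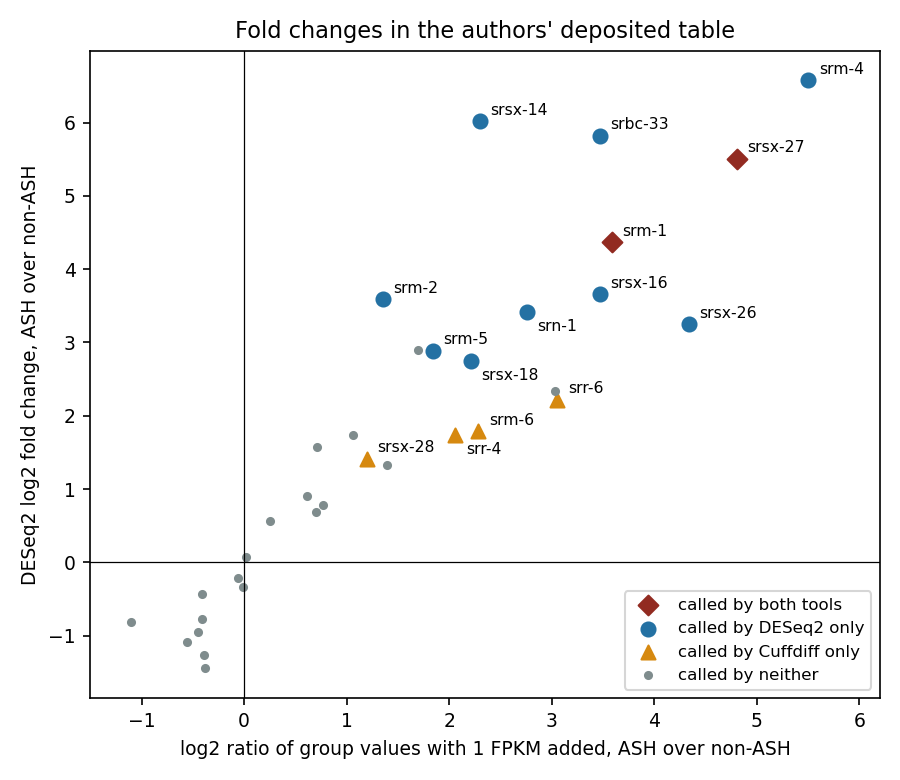
DESeq2 log2 fold change (y axis) against the log2 ratio of group values with 1 FPKM added (x axis), both ASH over non-ASH per the authors' deposited table, for the 34 members with an adjusted p; marker shapes give the tool that called the gene. The 2 diamonds are srm-1 and srsx-27, and no called gene lies below 0 on either axis.

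The 160 members without an adjusted p comprised 65 with an unadjusted p, 40 with a fold change and no p, and 55 with neither. Their highest values were 2.07 FPKM in ASH (srz-44) and 0.356 FPKM in non-ASH. Among the 65, srz-28, at 0.835 FPKM (ASH) against 0.0224 (non-ASH), and srbc-8, at 0.407 and listed at 0, had an unadjusted p under 0.05 per the authors' deposited table.

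The other genes of the pathway were taken from 2 lists chosen with earlier results known, and the counts below stand beside 5.32% higher and 4.44% lower over all genes with a DESeq2 adjusted p. Of 25 genes for receptor signalling in ciliated neurons 9 were called higher and 0 lower by DESeq2, with 12 higher and 1 lower at an unadjusted p under 0.05 and 8 higher and 0 lower by Cuffdiff. Among the 9 were ocr-2 and gpa-11, which are also in the list of ASH markers above. Others were gpc-1, a G gamma subunit, at 96.8 FPKM against 7.41, odr-3, a G alpha subunit, at 39.2 against 3.93, and the regulator gene rgs-3 at 31.1 against 5.31 (log2 fold change 1.89, adjusted p = 0.0307) per the authors' deposited table. The arrestin gene arr-1, which acts in receptor desensitization, had 15.9 FPKM against 7.03 and a log2 change of 1.17 (adjusted p = 2.5e-06; Cuffdiff q = 0.106), and gpa-2 had 9.52 against 1.60 per the authors' deposited table. The median log2 fold change of the list was 0.95. Of 14 genes for the trafficking of ciliary receptors 4 were called higher and 0 lower by DESeq2, with 5 and 0 at an unadjusted p under 0.05 and 2 and 0 by Cuffdiff. These were the kinesin gene osm-3 (4.48 FPKM against 1.23; Cuffdiff q = 0.0856), the BBSome gene bbs-1 (5.12 against 0.788), the Tubby homolog tub-1 (10.4 against 0.871) and the small GTPase gene arl-3 (38.6 against 7.27; Cuffdiff q = 0.309) per the authors' deposited table, and the median log2 fold change of the list was 0.28, against -0.09 over all genes with an adjusted p.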

How the data were processed

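Strand-specific libraries were made from poly(A)-selected RNA, per the labels' protocols, and grouped by sample title. Per the submitters' processing notes, the authors used TopHat2 2.0.13 with Bowtie2 2.2.1, HTSeq with DESeq2, Cufflinks with Cuffdiff, and FastQC; no build or annotation is stated. The authors' deposited table holds 46273 rows, 1 a repeat that was dropped. Its group levels are FPKM with 1 added by the authors, subtracted here. Its log2 fold changes, p-values and q-values, as deposited by the authors, come from DESeq2 and Cuffdiff; the Cuffdiff log2 values equal log2 ratios of the deposited group values to rounding. A Benjamini-Hochberg adjustment of the authors' DESeq2 p over the 16802 genes with an adjusted p returned the deposited values. A Cuffdiff p of exactly 1 was taken as not tested, which left 18043 genes.

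No values of single libraries were used and no new test was run. Members, lists and neighbours were chosen with earlier results of these data known. The naming rule took members called by either tool, with an adjusted p, at 1 FPKM or more, highest in their family, or with a known role (37 genes); pseudogenes, neighbours, srbc-8 and srz-28 were added after values were seen. All 194 members were found in the Ensembl release 115 annotation. No sequences are printed. Counting functions were tested on simulated data. Python 3.11.15 and pandas 2.3.3 were used.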

Additional observations from a re-analysis of the deposited data

How the results depend on the processing

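No paired analysis was possible because the table holds 1 value per group, and for the same reason no library could be left out. The count of members higher in ASH was 11 by DESeq2. It was 7 at a DESeq2 adjusted p under 0.01, 6 with Cuffdiff's q and 2 by both tools. The count stayed at 11 with a 2-fold minimum, with a floor of 1 FPKM, with current symbols and with the biotypes of the newer annotation, the last chosen after seeing the data, under which 8 members are pseudogenes. The 2-fold minimum and the floor could not lower the count. The 11 genes had log2 fold changes of 2.75 or more and ASH values of 1.65 FPKM or more. None of the 8 pseudogenes was among the 11. The count lower in ASH was 0 under each of these rules except the floor, which was not applied to it. Members above 1 FPKM numbered 22 in ASH and 7 in non-ASH. A limit of 0.5 FPKM gave 30 and 14, a limit of 2 FPKM gave 20 and 3, and a limit of 5 FPKM gave 13 and 2. The median log2 ratio of group values over the members was 0 with 1 FPKM added and with pseudocounts of 0.1 and 5 FPKM, and 0.18 over members at 0.1 FPKM or more in either group. The pseudocount could not change the median over all members. The value was higher in ASH for 74, higher in non-ASH for 65 and 0 in both groups for 55. For single members, Cuffdiff's q ended 9 calls and added 4, and an adjusted p under 0.01 ended 4. The pseudocount moved the log2 ratio by at least 0.05 for 35 (0.1 FPKM) and 34 (5 FPKM) of the 37 named members. Unknown depth leaves levels near 0 without an error.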

Other observations

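One member lies among receptor genes of another family that also had the higher value in ASH. In the annotation, srsx-21 is flanked by sru genes, and these neighbours were looked at after their values were seen. On one side sru-36, at 2.41 FPKM (ASH) against 0.0112 (non-ASH), had a DESeq2 log2 fold change of 3.69 (adjusted p = 0.0116), and sru-8 beyond it, at 16.4 and 0.0137 FPKM, had 4.85 (adjusted p = 0.000368), per the authors' deposited table. On the other side sru-38 was at 7.48 FPKM (ASH) against 0.0498 (non-ASH), with a log2 change of 3.09 and no adjusted p, and sru-40 was at 2.29 and 0.893 (adjusted p = 0.343), per the authors' deposited table. Cuffdiff called none of these 5 genes. All 5 had the higher value in ASH, while srsx-21 itself did not pass DESeq2's threshold.

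The gene beyond srsx-30, C51E3.10, has exons that overlap srsx-30 on the opposite strand and was listed at 113 FPKM (ASH) against 23.3 (non-ASH) (log2 fold change 2.23, adjusted p = 0.0314) per the authors' deposited table. The value of srsx-30 went the other way, at 0.0918 and 0.431 FPKM.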
